A study of Mus musculus with 27 samples.

Results

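Collagen and laminin chains were followed as a set of 55 genes, chosen by name as the protein-coding genes whose GENCODE vM21 symbol is that of a collagen chain (44 genes) or of a laminin alpha, beta or gamma chain (11 genes), among 22524 genes counted. RNA was sequenced from 27 libraries. Jejunal organoids came from 9 adult male C57BL/6 mice, with 3 mice each from the facilities SR and SE, both specific pathogen-free (SPF), and 3 germ-free mice (GF). The mice of a facility were cohoused littermates. They grew embedded in Matrigel. The immortalised mouse small intestinal epithelial line m-ICc12 gave 3 libraries under each of the labels untreated and TNF, numbered 1 to 3, and mouse embryonic fibroblasts (MEFs) gave 3 untreated libraries. Each organoid culture gave 1 library labelled untreated and 1 labelled as treated with TNF at 5 ng/mL for 8 h. The m-ICc12 libraries with the same number are called a culture here, although they share only that number, and they are repeats of a single line. MEFs had no TNF-labelled libraries, and no source used here says that the m-ICc12 or MEF replicates came from separate thaws or embryos, so p-values with them measure the spread between these samples, which may be technical.

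Laminins are heterotrimers of an alpha, a beta and a gamma chain, and with collagen IV networks they form the basement membrane on which an epithelium rests. In the small intestine the epithelium and the mesenchyme beneath it both contribute to that sheet, whereas the fibril-forming collagens of the stroma are mainly made by fibroblasts. Matrigel itself is a basement membrane extract rich in laminin and collagen IV protein, which RNA counts do not register.

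Library totals ranged from 6071103 to 43843615 counts (median 30339856), so that 3 counts, used as the detection floor, corresponded to 0.0684 to 0.494 CPM (counts scaled to a common library size). All levels are CPM normalised by the trimmed mean of M-values (TMM) over the 27 libraries. The treatment labels could not be taken at face value. Nfkbia, which encodes an inhibitor induced by NF-kB, was lower in the TNF-labelled libraries of the organoids (log2 fold change -2.66, SE 0.10, adjusted p = 6.4e-17) and of m-ICc12 (-2.13, SE 0.23, adjusted p = 4e-04; both edgeR), and the names of the deposited data give the opposite treatment in all 12 pairs. Nfkb2, Tnfaip3, Relb and C3, which the paper names as known TNF targets, were also lower by label TNF in 9 of 9 organoid and 3 of 3 m-ICc12 cultures. Directions are therefore given by label, and lower by label TNF need not mean lowered by TNF. Comparisons of sample types used the sum of the 2 libraries of a culture, which does not depend on the label. Such a sum mixes both labels and weights the deeper library more, whereas MEFs had untreated libraries alone. The epithelial marker list (9 genes) summed to 6824 to 8184 CPM in organoids, 2050 to 2792 CPM in m-ICc12 and 18.6 to 22.7 CPM in MEFs. In m-ICc12 most of this sum came from Krt8 (1370 CPM on average), Krt20 (636 CPM) and Krt18 (489 CPM), while Epcam (4.73 CPM), Cdh1 (2.40 CPM), Krt19 (3.31 CPM), Cldn7 (1.37 CPM) and Cdx2 (0.362 CPM) were under 5 CPM, against 178.5 CPM or more of each in organoids. Vim, an intermediate filament gene of mesenchymal cells, had 2409 CPM in m-ICc12 and 2459 CPM in MEFs. Thy1, a fibroblast surface marker, was at 0 counts in every MEF library. The m-ICc12 culture 1 library labelled TNF had the fewest counts and gave 13.5% of them to Lars2, a mitochondrial tRNA synthetase gene, and that of culture 3 gave 4.44%, against 0.115 to 0.158% in the other m-ICc12 libraries. In bulk RNA a smaller number of expressing cells and less RNA per cell cannot be told apart.

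Sequences are shown for 2 divergent pairs of collagen IV genes, which share the interval between their starts, and for 3 laminin chains whose organoid libraries did not overlap with those of m-ICc12 or MEFs. They are the stretches upstream of the RefSeq starts (build GRCm38.p6) that lie outside every exon of GENCODE vM21, written 5′ to 3′ on the strand of the gene, with CCAAT and GGGCGG on either strand in capitals. Col4a4 and Col4a3 are divergent neighbours on chromosome 1 whose annotated starts lie 72 bases apart, and chr1:82586850-82586920 (minus strand) is the whole interval between them. Col4a6 and Col4a5 are divergent on chromosome X with starts 1309 bases apart, shown as chrX:141474077-141474326 (minus) and chrX:141475169-141475384 (plus). Lamb1 is shown from chr12:31265043-31265233 (plus), Lama5 from chr2:180225860-180226109 (minus) and Lamb3, the leading laminin chain of the organoids, from chr1:193301744-193301992 (plus).
Col4a4: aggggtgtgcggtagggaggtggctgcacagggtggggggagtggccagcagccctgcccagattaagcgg
Col4a5: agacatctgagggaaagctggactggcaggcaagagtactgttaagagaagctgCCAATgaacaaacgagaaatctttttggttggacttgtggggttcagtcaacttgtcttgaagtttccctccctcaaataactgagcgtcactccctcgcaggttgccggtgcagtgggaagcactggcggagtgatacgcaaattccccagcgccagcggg
Col4a6: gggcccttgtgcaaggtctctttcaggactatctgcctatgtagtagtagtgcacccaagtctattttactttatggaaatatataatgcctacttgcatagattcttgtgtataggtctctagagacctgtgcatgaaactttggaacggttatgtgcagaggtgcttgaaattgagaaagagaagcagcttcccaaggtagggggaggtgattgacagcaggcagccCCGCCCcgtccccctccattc
Lamb1: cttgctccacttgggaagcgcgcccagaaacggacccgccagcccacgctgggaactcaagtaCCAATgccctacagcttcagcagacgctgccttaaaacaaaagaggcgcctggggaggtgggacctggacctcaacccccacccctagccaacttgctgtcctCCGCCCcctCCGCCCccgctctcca
Lama5: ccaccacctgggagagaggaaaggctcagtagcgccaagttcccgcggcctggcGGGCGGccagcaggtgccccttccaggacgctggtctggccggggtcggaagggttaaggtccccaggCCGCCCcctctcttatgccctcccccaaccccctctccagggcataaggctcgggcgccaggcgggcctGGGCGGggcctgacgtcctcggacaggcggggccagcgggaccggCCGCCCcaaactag
Lamb3: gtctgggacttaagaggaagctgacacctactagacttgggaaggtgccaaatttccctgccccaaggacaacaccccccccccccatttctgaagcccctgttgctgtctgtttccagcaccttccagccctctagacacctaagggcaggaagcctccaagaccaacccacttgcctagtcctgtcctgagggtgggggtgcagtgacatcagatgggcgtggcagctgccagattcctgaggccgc

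The printed stretch of Lama5 holds 4 GGGCGG matches and that of Lamb1 holds 2 with 1 CCAAT, while those of Lamb3 and Col4a4 hold neither motif. Over full windows of 250 bases, which 40 of the 55 members have (44 windows), GGGCGG was found in 54.5% of the members' windows and in 32.7% of all 32851 windows, and CCAAT in 31.8% and 33.8%. TATAAA was found in 11.4% and 12.4%, TGANTCA in 2.27% and 6.75%, and the kappaB consensus in 11.4% and 3.9%, each on both strands. The members' kappaB matches were in Col27a1, Col6a4, Col9a1, Col9a2 and the other window of Lamb3. A match is a description of letters, not of a site. Col4a1 and Col4a2 on chromosome 8 start within 21 bases of each other and run apart, so that no base of their windows lies outside an exon and none is printed.

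The members took a small share of organoid RNA and a far larger one in the cultured lines. Their counts summed to 0.0128 to 0.0251% of a library in the 18 organoid libraries, 0.420 to 0.534% in the 6 m-ICc12 libraries and 0.895 to 1.21% in the 3 MEF libraries, with no overlap between sample types. Laminins made up most of the members' counts in organoids (0.0146% ± 0.0024 of counts, SD, n = 9 cultures, against 0.00314% ± 0.00106 for collagens). In MEFs this order was turned, with 0.921% ± 0.141 for collagens and 0.133% ± 0.017 for laminins (n = 3), and in m-ICc12 the shares were 0.250% ± 0.013 and 0.218% ± 0.023 (n = 3). Of the 55 members, 3 had a mean level over 10 CPM in organoids (Lamb3 and Lamc1 among them), 16 in m-ICc12 and 22 in MEFs.

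**Figure D1:**
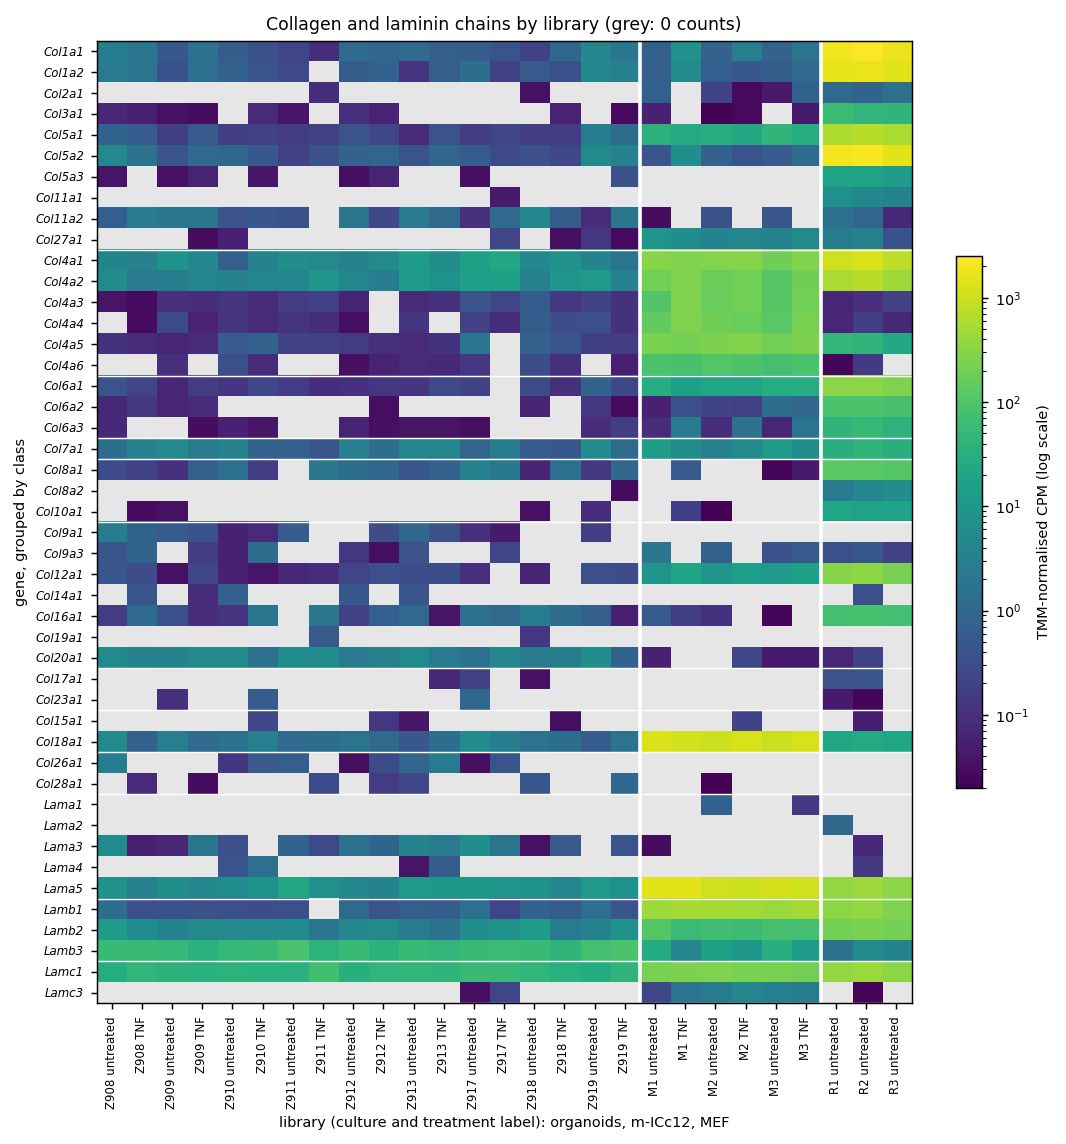
TMM-normalised CPM (colour, log scale) of 46 members with more than 3 counts in at least 1 library, in rows grouped by class, over the 27 libraries in columns, with 0 counts in grey. Col1a1, Col1a2 and Col5a2 are bright in the 3 MEF columns, all 6 collagen IV chains, Col18a1 and Lama5 in the 6 m-ICc12 columns, and Lamb3 and Lamc1 stand out in the 18 organoid columns.

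Between sample types, calls needed an adjusted p (Benjamini-Hochberg) under 0.05 in edgeR's quasi-likelihood test and a change of 0.5 or more on the log2 scale. Against MEFs, 35 members had enough counts to be tested in organoids, of which 6 were called higher, 27 lower and 2 were not called, where 35.5% of all 13495 genes tested were called higher and 29.4% lower. Their median log2 fold change was -6.69, against 0.08 over all genes tested. Against m-ICc12, 33 members were tested in organoids, with 7 called higher, 21 lower and 5 not called (31.2% and 28.7% of all genes) and a median log2 fold change of -3.82. In m-ICc12 against MEFs, 35 members were tested, with 10 called higher, 21 lower and 4 not called (29.0% and 26.0% of all genes) and a median of -2.04, the laminins having a median of 1.78 and the collagens one of -4.37. These counts cover the members that passed the filter, which asked for 10 counts in 50% or more of a group's samples, and many passed through the sample type in which they are high.

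Among laminin alpha chains, Lama5, the most widely made alpha chain of epithelial basement membranes, was the leading chain of m-ICc12 and low in organoids. It had 1042 to 1580 CPM (median 1134) in m-ICc12, 369, 440 and 322 CPM in the MEF libraries and 3.55 to 21.7 CPM (median 7.58) in organoids. The ranges of the sample types did not overlap, and organoids were 152-fold below m-ICc12 (log2 fold change -7.25, SE 0.31, adjusted p = 8.7e-12) and 44.5-fold below MEFs (-5.48, SE 0.29, adjusted p = 8.3e-11). Lama3, whose chain joins the beta-3 chain in the anchoring laminin of hemidesmosomes, was chosen for mention after its values were seen. It ranged from 0 to 6.21 CPM (median 0.708) in organoids, uneven between libraries of the same culture (5.75 and 0.0573 CPM in culture Z908), and was at or under 3 counts in every m-ICc12 and MEF library, so that organoids were at least 29.2-fold higher than m-ICc12 and at least 18.1-fold higher than MEFs. Lama1, Lama2 and Lama4 reached at most 0.76, 1.04 and 1.53 CPM in any library.

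The beta chains divided the sample types in opposite ways. Lamb3, the beta chain of the hemidesmosomal laminin, had 35.8 to 88.1 CPM (median 54.3) in organoids, 4.16 to 33.1 CPM (median 14.8) in m-ICc12 and 1.61, 5.17 and 4.08 CPM in MEFs. Every organoid library was above every m-ICc12 and MEF library, by 2.64-fold over m-ICc12 (log2 fold change 1.40, SE 0.23, adjusted p = 5.5e-05) and 16.0-fold over MEFs (SE 0.33 on the log2 scale, adjusted p = 2.4e-08). Lamb1, the beta chain of the most common laminins, went the other way, with 0 to 1.47 CPM (median 0.449) in organoids, 422 to 535 CPM (median 499) in m-ICc12 and 322, 370 and 258 CPM in MEFs. It was 730-fold lower in organoids than in m-ICc12 (-9.51, SE 0.22, adjusted p = 2.6e-14), and m-ICc12 was 1.53-fold above MEFs (0.61, SE 0.13, adjusted p = 0.0014), a difference that fell under the fold threshold without MEF replicate 3 (0.44). Lamb2, a beta chain prominent in muscle and kidney, had 1.68 to 13.03 CPM (median 5.26) in organoids, 59.6 to 107 CPM in m-ICc12 and 218, 231 and 216 CPM in MEFs.

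Among gamma chains, Lamc1 was expressed in every library of all sample types. Lamc1, the gamma chain of nearly all laminins of basement membranes, had 27.3 to 70.7 CPM (median 41.1) in organoids, 209 to 255 CPM (median 237) in m-ICc12 and 369, 429 and 323 CPM in MEFs, with no overlap. Organoids lay 5.75-fold below m-ICc12 (log2 fold change -2.52, SE 0.11, adjusted p = 1.3e-11) and 8.93-fold below MEFs (-3.16, SE 0.12, adjusted p = 1e-12). Lamc3, a rarer gamma chain named after its values were seen, had 0.260 to 4.17 CPM in m-ICc12 and was at or under 3 counts in every MEF library, so that m-ICc12 was at least 26.8-fold higher, and 1 organoid library was over 3 counts.

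Levels of different chains can be set side by side per kilobase of exon. On that scale the alpha chains made up 1.82 to 7.37% of the summed laminin level in organoids, 47.7 to 57.8% in m-ICc12 and 21.8 to 23.1% in MEFs. Beta and gamma chains were near each other in organoids (47.7% ± 7.0 and 48.1% ± 6.5, SD, n = 9). The ratio of Lamb1 to Lamc1 per kilobase was 0.0144 ± 0.0075 in organoids, 1.73 ± 0.03 in m-ICc12 and 0.705 ± 0.034 in MEFs (SD over cultures). Over single libraries it ran from 0 to 0.0448, 1.495 to 2.02 and 0.665 to 0.729.

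**Figure D2:**
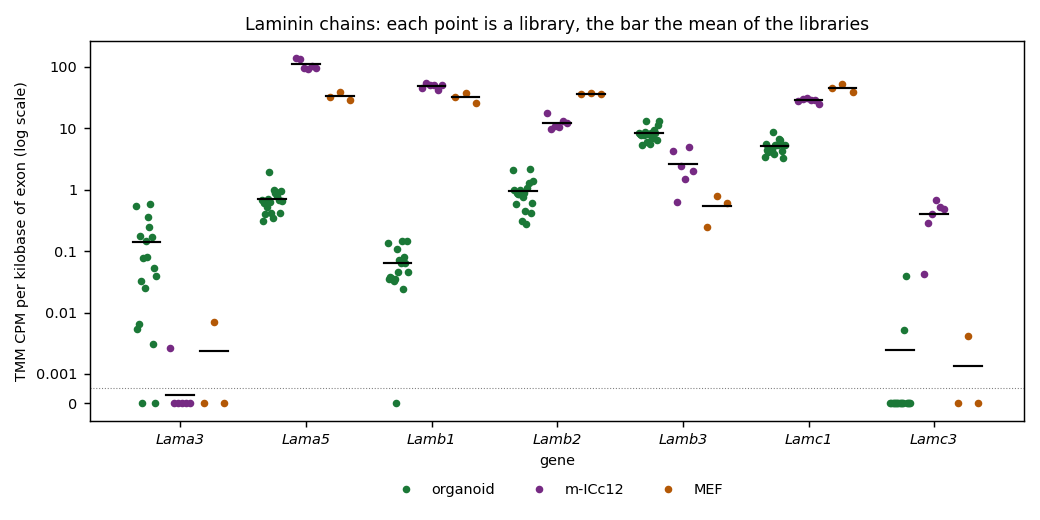
Level of 7 laminin chains as TMM CPM per kilobase of exon (log axis, libraries at 0 below the dotted line), each point being a library and each bar the mean of the libraries of a sample type. Lamb3 and Lamc1 lead these chains in organoids (8.41 and 5.04 CPM per kilobase on average), whereas Lama5 and Lamb1 lead in m-ICc12 (109.5 and 48.9).

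All 6 collagen IV chains, which assemble the network of the basement membrane, were expressed in m-ICc12, and each was lower in organoids. Col4a1, which pairs with Col4a2 in the ubiquitous collagen IV network, had 0.703 to 22.1 CPM (median 4.94) in organoids, 199.5 to 313 CPM (median 283) in m-ICc12 and 1058, 1225 and 793 CPM in MEFs. Col4a2 had 2.41 to 16.3 CPM (median 4.37), 120 to 260 CPM (median 203) and 552, 712 and 449 CPM. Both chains thus rose from organoids over m-ICc12 to MEFs without overlap, Col4a1 being 41.6-fold and Col4a2 28.0-fold lower in organoids than in m-ICc12 (log2 fold changes -5.38, SE 0.42, and -4.81, SE 0.35, adjusted p = 1.3e-08 and 5.8e-09). Within organoids these chains varied over cultures (SD 5.13 around a mean of 6.69 CPM for Col4a1, n = 9), with culture Z917 highest in both libraries (15.9 and 22.1 CPM).

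The other 4 collagen IV chains were highest in m-ICc12, and all of them but Col4a5 lay near the floor in both other sample types. Col4a3 (ENSMUSG00000079465) and Col4a4 (ENSMUSG00000067158), which form with Col4a5 the network of the kidney glomerulus, had 104.5 to 276 CPM and 124 to 258 CPM in m-ICc12, 0 to 0.601 CPM and 0 to 0.635 CPM in organoids, and at most 0.191 CPM and 0.175 CPM in MEFs. Against organoids the difference was 994-fold for Col4a3 (log2 fold change of organoids over m-ICc12 -9.96, SE 0.35, adjusted p = 1e-12) and 1153-fold for Col4a4 (-10.17, SE 0.37, adjusted p = 1.9e-12), and against MEFs it was 1393-fold and 1551-fold. Per kilobase the levels of these divergent neighbours had a ratio of 1.00 ± 0.06 in m-ICc12 (n = 3 cultures, each averaged over its libraries). Over the 6 single libraries the ratio ran from 0.744 to 1.17. Col4a5 had 204 to 268 CPM in m-ICc12, 47.6, 41.6 and 23.4 CPM in MEFs and 0 to 1.90 CPM in organoids. Col4a6, its divergent neighbour, had 77.4 to 107 CPM in m-ICc12, at most 0.150 CPM in MEFs and 0 to 0.352 CPM in organoids. The organoid medians of Col4a3, Col4a4, Col4a5 and Col4a6 (0.112, 0.104, 0.167 and 0.0601 CPM) lay near the floor of 0.0845 to 0.273 CPM in these libraries. These chains were over 3 counts in 7, 6, 9 and 3 of the 18 organoid libraries, with at most 18, 19, 60 and 10 counts.

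Col18a1, whose product is a heparan sulfate proteoglycan of basement membranes and the source of endostatin, was the highest collagen of m-ICc12. It had 982 to 1370 CPM (median 1169) there, 22.4, 25.7 and 20.7 CPM in MEFs and 0.476 to 5.83 CPM (median 1.54) in organoids. The m-ICc12 libraries were above all others, 52.4-fold over MEFs (log2 fold change 5.71, SE 0.15, adjusted p = 2.1e-11), with organoids 569.5-fold lower (-9.15, SE 0.32, adjusted p = 1.2e-12). Without the culture 1 library labelled TNF, the counts of members called in both m-ICc12 comparisons were the same as with it (7 and 21 against organoids, 10 and 21 against MEFs).

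**Figure D3:**
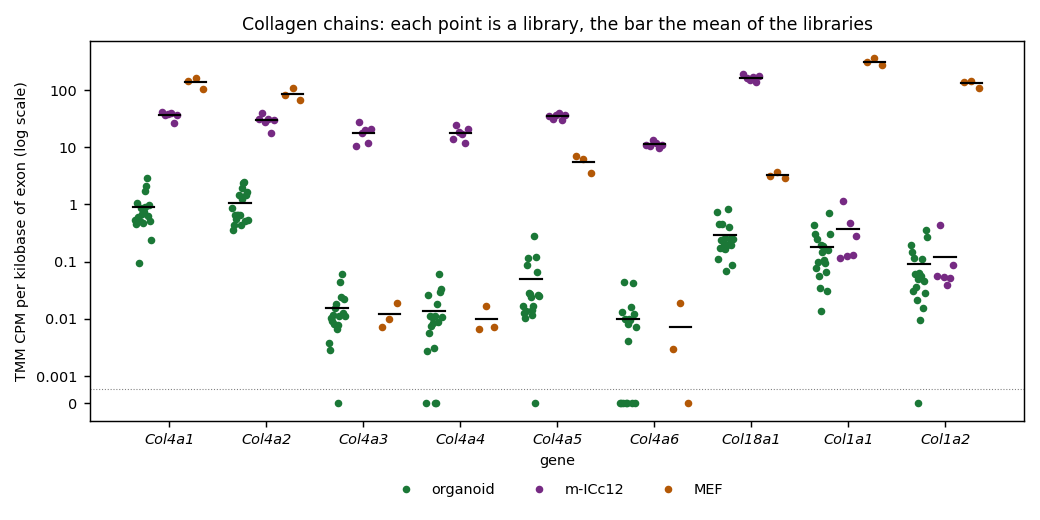
Level of the 6 collagen IV chains, Col18a1, Col1a1 and Col1a2 as TMM CPM per kilobase of exon (log axis, libraries at 0 below the dotted line), each point being a library and each bar the mean of a sample type. The m-ICc12 points of Col4a3, Col4a4 and Col4a6 sit between 9.71 and 27.7 with organoids and MEFs under 0.1, whereas Col1a1 and Col1a2 are high in MEFs alone.

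The leading fibril-forming collagens, which bear the tensile load of connective tissue, were abundant in MEFs alone. Col1a1, the alpha-1 chain of collagen I, had 2023, 2392 and 1792 CPM in MEFs, 0.752 to 7.45 CPM (median 1.36) in m-ICc12 and 0.0911 to 4.58 CPM (median 0.835) in organoids. Col1a2, its partner, had 1692, 1813 and 1380 CPM, 0.478 to 5.54 CPM and 0 to 4.53 CPM, and Col5a2, which helps to set fibril diameter, had 2041, 2302 and 1530 CPM, 0.425 to 6.58 CPM and 0.192 to 5.60 CPM. MEFs were far above both other sample types, with organoids 1698-fold (Col1a1, log2 fold change -10.73, SE 0.46, adjusted p = 6.7e-12), 1387-fold (Col1a2, -10.44, SE 0.52, adjusted p = 4.3e-11) and 1473-fold lower (Col5a2, -10.52, SE 0.59, adjusted p = 2e-10). Organoids and m-ICc12 overlapped in Col1a1, Col1a2 and Col5a2 and none of these was called between them (adjusted p = 0.59, 0.78 and 0.65). For Col1a1 this depended on the label, with a call for the libraries labelled TNF alone (log2 fold change of organoids over m-ICc12 -1.98, adjusted p = 0.031) and 0.73 for those labelled untreated. Col5a1, which joins Col5a2 in collagen V and was named after its values were seen, was not at trace level in m-ICc12, with 23.4 to 42.3 CPM there, 602, 707 and 562 CPM in MEFs and 0.0794 to 2.71 CPM in organoids.

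As shares of the summed collagen level per kilobase, fibril-forming chains made up 65.9 to 67.0% in MEFs, 1.06 to 2.13% in m-ICc12 and 1.88 to 44.3% in organoids. Collagen IV made up 19.3 to 21.8%, 40.9 to 49.6% and 21.3 to 68.9%. The class of Col15a1 and Col18a1 made up 47.0 to 55.0% in m-ICc12. The organoid shares rest on a summed level of 2.97 to 7.92 CPM per kilobase, against 262.5 to 355 in m-ICc12 and 920 to 1274 in MEFs, and varied accordingly.

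**Figure D4:**
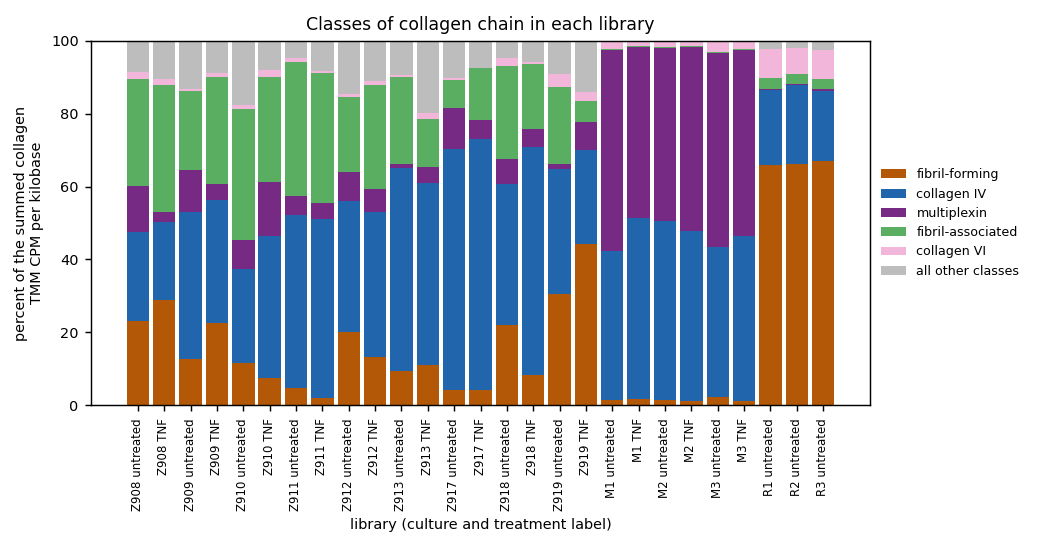
Percent of the summed collagen level (TMM CPM per kilobase) that each class of chain makes up, one bar for each of the 27 libraries. Fibril-forming chains fill about the same share of the 3 MEF bars (65.9 to 67.0%), collagen IV and the class of Col18a1 fill most of the 6 m-ICc12 bars, and the 18 organoid bars are uneven.

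The organoid library with the highest Col1a1, Col1a2 and Col5a2, expressed as percent of the MEF mean, was that of culture Z919 labelled untreated (0.221, 0.278 and 0.286%), which was also highest in Acta2 (0.181%) and Sparc (0.378%), with culture Z908 among the next. Vim, Prrx1 and Col3a1 were highest in organoid libraries of other cultures. Over the 18 organoid libraries the median was 0.0403% of the MEF level for Col1a1, 0.0338% for Acta2 and 0.0554% for Sparc. In m-ICc12 the culture 1 library labelled TNF was highest in Col1a1 (0.360%), Col1a2 (0.340%), Col5a2 (0.336%), Acta2 (0.292%), Tagln (1.33%) and Prrx1 (0.783%), but not in Col3a1, Col5a1, Col6a1 or Col6a2. Sparc (22.4 to 31.6%) and Vim (74.5 to 121%) were far above such values in every m-ICc12 library. Twist1 was at 0 in all 6 of these libraries, so that Sparc, Vim and Twist1 cannot show a trace of that size. The smooth muscle and pericyte list (7 genes) summed to 0.273 to 5.98 CPM in organoids, 0.999 to 12.99 CPM in m-ICc12 and 1984 to 2099 CPM in MEFs, with none of its genes over 3 counts in every organoid library and no gene of it at 0 in all of them. The fibroblast list (10 genes) summed to 11.7 to 30.4 CPM in organoids, 1857 to 3003 CPM in m-ICc12 and 2706 to 2940 CPM in MEFs. Nearly all of this sum in m-ICc12, and most of it in MEFs, was Vim (2409 and 2459 CPM on average). Zeb1 had 25.9 CPM in m-ICc12, while Prrx1, Pdgfrb and Twist2 had 0.309, 0.098 and 0.075 CPM, against 177, 85.2 and 19.0 CPM in MEFs. In m-ICc12, 6 of the 10 genes were at or under 3 counts in every library. In organoids Thy1 and Dpt were at 0 in all libraries. Thy1 was also at 0 in every MEF library and Dpt in 2 of 3, so neither can show fibroblast RNA here. Pdgfrb (9.62 CPM on average) and Vim (8.59 CPM) were over the floor in all 18 organoid libraries and Prrx1 (1.21 CPM) in 12. Twist1 and Twist2 were over it in 0 of 18. The part of other cells or of RNA carried between libraries in these traces was not tested. With cultures Z908 and Z919 left out, a choice made after seeing the data, 6 members were still called higher and 27 lower in organoids than in MEFs.

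Collagen VI, the beaded microfibril collagen of the cell surface, was split in m-ICc12. Col6a1 (chosen after its values were seen) had 15.6 to 30.2 CPM in m-ICc12, 331, 322 and 260 CPM in MEFs and 0 to 0.845 CPM in organoids. Col6a2 and Col6a3, needed with it for the trimer, had 0.0579 to 1.31 CPM and 0.0714 to 2.60 CPM in m-ICc12, against 81.5 to 92.0 CPM and 39.0 to 51.4 CPM in MEFs.

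Few collagens were higher in organoids. Col20a1, a fibril-associated collagen, had 0.845 to 6.27 CPM (median 3.55) in organoids, at most 0.239 CPM in m-ICc12 and at most 0.200 CPM in MEFs. Every organoid library was above every other library, by 49.6-fold over m-ICc12 (log2 fold change 5.63, SE 0.63, adjusted p = 9e-07) and 37.7-fold over MEFs (5.24, SE 0.79, adjusted p = 2e-05). Its level spread over cultures with an SD of 0.98 around 3.77 CPM (n = 9), and 79 of its 5142 exon bases overlap an annotated transcript on the same strand. The remaining collagens called higher in organoids were Col9a1 and Col26a1 in both comparisons, and Col8a1 and Col11a2 against m-ICc12 alone, all under 5 CPM. The groups of Col9a1, Col26a1 and Col11a2 overlapped, and the calls of Col26a1 were lost whenever any 1 of the MEF or m-ICc12 replicates was left out (adjusted p = 0.051 to 0.077). The call of Col11a2 was lost without m-ICc12 culture 1 (adjusted p = 0.06) and for the libraries labelled untreated alone (adjusted p = 0.14), and that of Col8a1 for the libraries labelled TNF alone (adjusted p = 0.074). Counts of Col9a3, whose exons overlap those of Tcfl5 on the other strand over 234 of 3853 bases, were not called in any comparison of sample types.

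At the other end, 8 members had at most 3 counts in each of the 27 libraries. They were Col6a4, Col6a5, Col6a6, Col9a2, Col13a1, Col22a1, Col24a1 and Col25a1, of which 6 were at 0 throughout, and a count of 0 allows up to 3 counts, or 0.0684 to 0.494 CPM, for counting error only.

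Genes that act on collagens and laminins were counted from lists given with the member list. Over all genes tested, 35.5% were higher and 29.4% lower in organoids than in MEFs, and 29.0% and 26.0% in m-ICc12 than in MEFs. Of 17 genes that modify and fold collagen, 16 were tested in organoids against MEFs and 14 were lower, among them Fkbp10 (log2 fold change -10.64, SE 0.32, adjusted p = 9.9e-14), a collagen chaperone. In m-ICc12 against MEFs 13 of 16 were lower and 1 higher. Serpinh1, the collagen-specific chaperone, had 0.378 to 4.85 CPM in organoids, 447 to 683 CPM in m-ICc12 and 1472 to 1724 CPM in MEFs, in the order of the summed collagen level. Of 7 crosslinking genes, 6 were lower and 1 higher in organoids than in MEFs, the higher being Tgm2, a transglutaminase (3.83, SE 0.15, adjusted p = 2.1e-12). Of 10 genes of procollagen processing, 8 were tested and 6 were lower.

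Partners and receptors of the basement membrane were called in both directions, as were genes at large. Of all genes tested, 35.5% were higher and 29.4% lower in organoids than in MEFs, and 31.2% and 28.7% than in m-ICc12. Of 11 partner genes, 9 were tested in organoids against MEFs, with 3 higher and 3 lower, and 10 against m-ICc12, with 4 higher and 5 lower. Nid1, a linker between laminin and collagen IV, had 3.69 to 39.6 CPM (median 11.3) in organoids, 0 to 0.133 CPM in m-ICc12 and 102 to 151 CPM in MEFs, so that m-ICc12, with the highest Lama5, had nearly no Nid1 (m-ICc12 over MEFs -10.90, SE 0.34, adjusted p = 1e-10). Hspg2, encoding perlecan, had 1.42 to 23.7 CPM in organoids, 291 to 487 CPM in m-ICc12 and 597 to 1036 CPM in MEFs. Of 9 receptors other than integrins, 7 were tested, and 2 were higher and 3 lower in organoids than in MEFs. Bcam, a receptor of the laminin alpha-5 chain, followed Lama5 in being highest in m-ICc12, with 701 to 1084 CPM there, 7.50 to 38.2 CPM in organoids and 1.35 to 2.21 CPM in MEFs. Of 15 matrix metalloproteinases, 10 were tested in organoids against MEFs with 2 higher and 7 lower, Mmp7, a Paneth cell enzyme, having 1.75 to 18.8 CPM in organoids and 0 in MEFs. Of 5 metalloproteinase inhibitors, 4 were tested and lower, and of 16 other genes of the interstitial matrix, 13 were tested with 11 lower and 1 higher, Fbln1 (1.03, SE 0.19, adjusted p = 0.00014).

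Germ-free and SPF origin of the organoids was compared over 3 and 6 culture sums. None of 29 members tested was called by edgeR, where 0.0540% of 12970 genes were, 2 had an unadjusted p under 0.05 and DESeq2 called 0. At the thresholds of the study (unadjusted p of at most 0.05, log2 fold change of at least 0.5) 0 members were higher and 2 lower. Of all genes tested, 104 were higher and 160 lower at these thresholds. The smallest p was that of Col14a1, a fibril-associated collagen (adjusted p = 1), which was at 0 in all GF cultures, at 0.0452, 0.229 and 0.381 CPM in the SR cultures and at 0, 0.218 and 0.247 CPM in the SE cultures. Its SPF level came from 5 of 12 libraries, each with at most 16 counts, so that it lies near the floor. Lamb3 had culture means of 49.0, 59.7 and 81.1 CPM in GF, 43.7, 54.5 and 54.5 CPM in SR and 45.2, 50.5 and 62.5 CPM in SE, which overlapped (log2 fold change 0.26, SE 0.18). Lamc1 differed by 0.15 (SE 0.15). Col4a2 had 6.45, 7.21 and 15.9 CPM in GF, 3.67, 3.96 and 4.10 CPM in SR and 3.59, 6.93 and 10.4 CPM in SE, overlapping through SE (0.87, SE 0.42, adjusted p = 1).

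Between the organoid libraries labelled TNF and untreated, none of 18 members tested was called by edgeR, where 1.00% of 12104 genes were, 1 had an unadjusted p under 0.05 and DESeq2 called 0. At the thresholds of the study 0 members were called, against 83 genes higher and 269 lower over all genes tested. Since both libraries of a culture come from 1 mouse, the culture was also fitted as a block, in which 1 member was called, lower by label TNF, where 1.17% of all genes were called lower. Lamc1 ranged from 34.2 to 70.7 CPM in the libraries labelled TNF and from 27.3 to 55.9 CPM in those labelled untreated, which overlapped (log2 fold change 0.23, SE 0.15, adjusted p = 0.76). Lamb3 had medians of 45.0 and 55.6 CPM (-0.23, SE 0.15, adjusted p = 0.76) and Lama5 of 7.20 and 7.83 CPM, lower by label TNF in 8 of 9 cultures (-0.58, SE 0.29, adjusted p = 0.58). Lamb1 was lower in the TNF-labelled library in 9 of 9 cultures, at levels between 0 and 0.636 CPM against 0.345 to 1.47 CPM (-1.18, SE 0.68, adjusted p = 0.68), and the TNF-labelled libraries had at most 20 counts of it. Col4a1 did not differ in mean, with 6.69 CPM under both labels (SE of the log2 fold change 0.46).

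Of the related genes, 4 were called in organoids by label, all lower in the TNF-labelled libraries, where 113 of all 12104 genes were called lower and 8 higher. They were the crosslinking genes Tgm2 (log2 fold change -0.75, SE 0.09, adjusted p = 4e-06) and Loxl2 (-4.26, SE 0.78, adjusted p = 0.0018), both of the 2 crosslinking genes tested, the receptor Bcam (-0.91, SE 0.18, adjusted p = 0.0053) and the membrane-type metalloproteinase Mmp15 (-0.66, SE 0.15, adjusted p = 0.02). These directions follow labels that the names of the deposited data contradict, so lower by label need not mean lowered by TNF. Only 2 of the 7 crosslinking genes listed had enough counts to be tested. Nothing was called among the 12 tested genes of collagen modification or the 9 tested partners of the basement membrane.

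**Figure D5:**
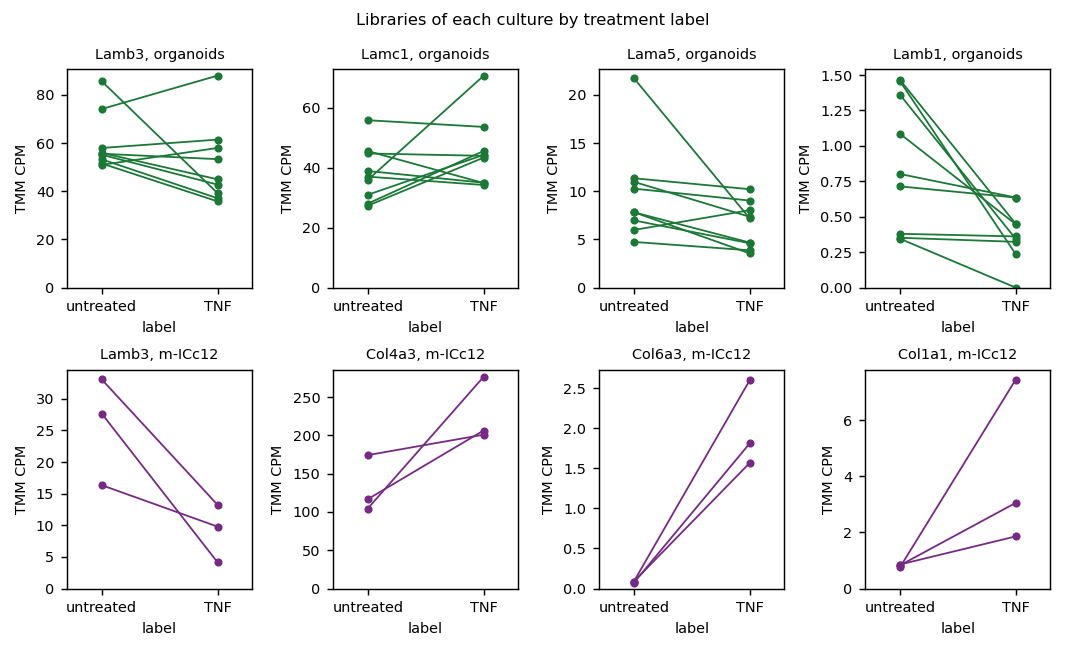
TMM CPM of the 2 libraries of each culture, labelled untreated and TNF and joined by a line, for Lamb3, Lamc1, Lama5 and Lamb1 in 9 organoid cultures (top) and Lamb3, Col4a3, Col6a3 and Col1a1 in m-ICc12 (bottom), where lines join libraries that share a number, on linear axes from 0. In m-ICc12 the 3 lines of each panel run the same way, down for Lamb3 and up for the others, and the organoid lines of Lamb1 all run down at under 1.5 CPM. Most members tested in m-ICc12 (20 of 26) overlapped between labels and are not drawn for it.

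In m-ICc12, none of 26 members tested was called between labels by edgeR, where 0.110% of 11861 genes were. The libraries of the labels overlapped in 20 of these members, and the share of all genes without overlap was not computed. DESeq2 called 2 (Col4a3 and Col6a3), but on simulated counts of this comparison the share of false calls was above its nominal level with both tools and higher with DESeq2. In edgeR 7 had an unadjusted p under 0.05, of which 5 were higher and 2 lower in the TNF-labelled libraries at the thresholds of the study (1.73% and 2.02% of all genes). Col4a3 had 276, 201 and 206 CPM in the libraries labelled TNF of cultures 1, 2 and 3 and 104.5, 174 and 117 CPM in those labelled untreated. The groups did not overlap (log2 fold change 0.80, SE 0.20, adjusted p = 0.39, and adjusted p = 0.036 in DESeq2). Its neighbour Col4a4 had 258, 182 and 221 CPM against 149.6, 196 and 124 CPM, which overlapped (0.51, SE 0.19, adjusted p = 1), whereas Col4a5 and Col4a6 had log2 fold changes of 0.08 (SE 0.16) and -0.02 (SE 0.17).

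Lamb3 went the other way in m-ICc12, with 4.16, 9.80 and 13.2 CPM in the libraries labelled TNF against 27.7, 16.3 and 33.1 CPM (log2 fold change -1.45, SE 0.38, adjusted p = 0.40), without overlap. Col6a3, the largest chain of collagen VI, had 2.60, 1.57 and 1.81 CPM in the TNF-labelled libraries (15, 59 and 38 counts) against 0.0868, 0.0869 and 0.0714 CPM (3, 4 and 3 counts), without overlap (4.54, SE 1.26, adjusted p = 0.50, and adjusted p = 0.0077 in DESeq2). Col1a1 had 7.45, 3.05 and 1.86 CPM against 0.752, 0.825 and 0.856 CPM (2.33, SE 0.89, adjusted p = 1). Its partner Col1a2 had 5.54, 0.478 and 1.10 CPM against 0.6945, 0.673 and 0.642 CPM, and so was lower by label TNF in culture 2. In the culture 1 library labelled TNF, Col1a1 had 43 counts. That library was also the highest of m-ICc12 in Col1a2, Col5a2, Acta2, Tagln and Prrx1. Col12a1, a fibril-associated collagen, had 14.6 to 18.5 CPM against 8.59 to 11.5 CPM (0.77, SE 0.31, adjusted p = 1). Col11a2, at 0 in the TNF-labelled libraries, had at most 0.452 CPM in the others.

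Library quality moved with these differences in part. The libraries labelled TNF of cultures 1 and 3 had the raised Lars2 shares given above and fewer counts, while that of culture 2 had a Lars2 share of 0.158%, and culture 2 showed the smallest differences in Col4a3 and Lamb3, whereas Col1a1 differed least in culture 3. Without culture 2, Col4a3 (log2 fold change 1.14, adjusted p = 9e-05), Col4a4 (0.83, adjusted p = 0.023) and Lamb3 (-1.72, adjusted p = 0.0029) passed the thresholds. Over all genes 61 were then called higher and 32 lower, against 2 and 11 with culture 2. The TNF-labelled libraries left were those with raised Lars2 shares, so that label and library quality cannot be told apart there. Without culture 1 the value of Col4a3 was 0.49 (adjusted p = 1), and leaving Lars2 out of the counts, chosen after seeing the data, gave 0.80. The part of RNA quality in these differences was not tested.

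The difference between the label contrasts of m-ICc12 and organoids, tested as an interaction, was called for none of 30 members by edgeR, where 0.159% of 13183 genes were, and 7 had an unadjusted p under 0.05. At the thresholds of the study 5 members were higher and 2 lower, against 452 and 296 of all genes tested. DESeq2 was not run on it. The smallest p was that of Lamb3 (log2 difference -1.22, SE 0.38, adjusted p = 0.34). In the fit with cultures as blocks, which for m-ICc12 rests on the shared number alone, Lamb1 was called (1.298, adjusted p = 0.050; 0.539% of all genes were called higher), where its own label contrasts were -1.18 (SE 0.68) in organoids and 0.17 (SE 0.15) in m-ICc12.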

How the data were processed

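RNA counts of 27 libraries were used. According to the study's methods the authors used FastQC for quality control, Trimmomatic for adapters, a hard trim of the 3′ end, STAR for single-end alignment to GRCm38 and GenomicRanges for counting over genes, while the submitters' processing notes name bcl2fastq 2.19, STAR 2.5.4b, featureCounts and edgeR. The deposited values are whole-number counts, not normalised. The kit selected poly-A RNA, and the labels call it stranded, which the study's methods do not. The use of strand and the handling of multiply aligned reads in counting are not given in the sources used here, so that antisense and overlapping transcripts can add to a gene. Identifiers were matched to GENCODE vM21, which also gave the exon length (union of exons).

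Levels are TMM-normalised CPM from 1 fit of all libraries. Tests used edgeR 4.0.16 in R 4.3.3 (quasi-likelihood F-test, TMM, no covariate, Benjamini-Hochberg over all genes tested) on genes reaching 10 counts in 50% or more of a group's samples. The study's own thresholds (unadjusted p of at most 0.05, log2 fold change of at least 0.5) were used beside these. Folds against a group at or under 3 counts in each library are lower bounds taken at that floor. Depth limits precision through counting error and the floor covers only that. Organoids, m-ICc12 and MEFs were compared on culture sums, and the labels within organoids and m-ICc12 on libraries. Alternatives were DESeq2 1.42.0, no count filter, libraries of 1 label, all cultures in 1 fit, the facility as a covariate, the culture as a block and leaving out each replicate. Tests were checked on simulated data.

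Libraries of an organoid culture come from 1 mouse, and their deviations from the label means correlated with r = 0.0769 to 0.2571, each best with its own counterpart (9 of 9).

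The members and lists were chosen with earlier results of these data known. Members described with values are the 4 collagens and 4 laminins highest per kilobase in each sample type, those called or with the smallest p in a TNF or GF comparison, and their chain partners. Other members were named after their values were seen. From each list, the called gene with the largest change in each direction and genes of known binding to the members are named, the latter after their values were seen. Promoter windows are from RefSeq. Authors' comparisons were not used. Values of 1 member are not reported here.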

Additional observations from a re-analysis of the deposited data

Results flagged for a closer look

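In 3 of 18 members tested over the 9 organoid cultures, 1 culture stood apart from the others by Dixon's gap criterion (critical value 0.493), which chance meets in about 1 of 20 groups. Col4a1 had a mean of 19.0 CPM in culture Z917, with the next culture at 9.76 CPM. Col4a4 had 0.476 CPM in culture Z918 (19 and 10 counts in its libraries), with culture Z919 next at 0.234 CPM (8 and 4 counts), all low counts. Lamb3 had 81.1 CPM in culture Z919, with the next at 62.5 CPM. All of these cultures are from the GF facility, and the cause was not tested.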

How the results depend on the processing

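Of 1782 values of single members under alternatives, 47 changed side of the threshold and 8 changed sign. All sign changes were in members that were not called. In organoids against m-ICc12, Col5a2 became -1.37 for the libraries labelled TNF alone, -0.64 without cultures Z908 and Z919 and -0.042 to 0.81 with 1 culture left out, Col1a2 became -1.19, -0.61 and -0.24 to 0.69, and Col1a1 became 0.73 for the libraries labelled untreated alone. In m-ICc12 against MEFs, Col9a3 became -0.81 for the libraries labelled TNF alone. The number of members called between sample types moved by over 1.5 times under 1 alternative, organoids against m-ICc12 in the libraries labelled untreated, with 3 called higher, and with 1 replicate left out it stayed at 5 to 6 higher and 26 to 28 lower (organoids against MEFs), 6 to 8 and 20 to 21 (organoids against m-ICc12) and 9 to 11 and 20 to 22 (m-ICc12 against MEFs). Few counts limit the members near the floor.

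Counts over all genes moved more. In GF against SPF organoids (6 higher, 1 lower) there were 3 higher for either label alone, 12 and 12 in DESeq2, 3 and 0 against SR alone, 2 lower against SE alone, and 3 to 6 and 1 to 2 with 1 culture left out. By TNF label in organoids (8 and 113) the study's thresholds gave 83 and 269, and 5 to 12 were higher with 1 culture left out. In m-ICc12 (2 and 11) there were 14 higher with all genes of at least 1 count, 1 higher without Lars2, 21 and 25 in DESeq2 (2 members higher), 205 and 240 at the study's thresholds (5 and 2 members), and 2 to 61 and 10 to 32 with 1 culture left out (0 to 2 and 0 to 1 members). For the difference between the contrasts (17 and 4) leaving out 1 m-ICc12 culture gave 8 to 27 and 3 to 13. The cause was not tested.

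With the culture as a replicate block, 29 genes were higher by label in organoids and 1 member was lower, and the difference between the contrasts had 71 higher and 28 lower, with 1 member higher (Lamb1). In m-ICc12 the libraries share only a number (r = -0.0016 to 0.1125, 1 of 3 matching best with its own number), and the block gave 0 higher and 6 lower. It changed no other call of a member.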
